A study of Sus scrofa with 16 samples.

Results

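The 6 miRNAs described here are best known from organs other than the uterus: miR-1, miR-133a and miR-206 from muscle, miR-122 from liver, and miR-124 and miR-9 from brain. Each was counted as the reads of 20 to 26 nt whose first 20 nt equal those of the deposited read recognised as its mature strand. Counts were scaled to a total of 1000000 reads of 18 to 26 nt (RPM). In all, 23707 groups of reads shared their first 20 nt and held at least 30 reads, and 5 of the 6 miRNAs were among them, while miR-124 had 2 reads. They were chosen by their levels across sows and doses, already seen in these data, so those levels are given as a description.

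Small RNA was sequenced from endometrium, the lining of the uterus, of 15 adult pregnant sows on day 10 of pregnancy. The comparison asks what oral oestradiol does to endometrial small RNA in early pregnancy. From insemination the feed of 4 control sows (sows 1 to 4) carried only the ethanol carrier, and that of the others carried oestradiol (E2). The dose was 0.05 µg/kg body weight/day in 3 sows (sows 5 to 7), 10 µg/kg/day in 4 sows (sows 8 to 11) and 1000 µg/kg/day in 4 sows (sows 12 to 15). Tissue of sow 7 was extracted 2 times, and both libraries were summed into 1 replicate. The 16 libraries held 4497096 to 14945018 reads, of which 46.7 to 78.4% were 18 to 26 nt long. Markers of epithelium (miR-200a and miR-200b) and of stroma (both strands of miR-199a) averaged 11500, 9223, 10754 and 8980 RPM. For the conceptus miRNAs miR-302, miR-367 and miR-372, only 2 groups of reads sharing bases 1 to 8 of each were examined. These were the largest and the next distinct group, meaning the next largest that differed from it by more than 1 base. None was recognised as the miRNA, and other groups were not covered. In bulk tissue, fewer cells of a type and less RNA per cell cannot be told apart.

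A miRNA is a short RNA that guides Argonaute proteins to messenger RNAs, mainly by pairing of its seed (bases 2 to 8), and lowers their translation and stability. miR-1 and miR-133a are made together from shared transcripts in heart, skeletal and, at lower levels, smooth muscle, where they act in muscle cell differentiation and proliferation. miR-206 is the skeletal muscle relative of miR-1 with the same seed. miR-122 is the dominant miRNA of hepatocytes, known for its part in lipid metabolism. miR-124 marks neurons, and miR-9 acts in neural progenitors.

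The most common read of each miRNA is shown with the seed in capitals, T standing for U, because seed and body decide which reads belong to it. miR-124 had 1 read each of 2 lengths, and the longer is shown. The sequences are deposited reads. No table of mature miRNAs was used, so the names rest on general knowledge of these miRNAs.
miR-1: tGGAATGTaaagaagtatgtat
miR-206: tGGAATGTaaggaagtgtgtga
miR-133a: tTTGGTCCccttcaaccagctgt
miR-133a, second 5′ form: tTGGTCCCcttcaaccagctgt
miR-122: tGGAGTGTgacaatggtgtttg
miR-124: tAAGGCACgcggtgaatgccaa
miR-9: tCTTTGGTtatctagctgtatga
miR-1 and miR-206 share their seed and differ at 2 of their first 20 bases, counted from 1 at the 5′ end, which are A11G and A17G from miR-1 to miR-206. Both forms of miR-133a differ only in their start, by 1 base, and this moves the seed.

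The 6 miRNAs spanned a wide range of levels. Over 15 sows miR-9 averaged 1661 ± 450 RPM (SD, n = 15) from 145045 reads, and ranked 71 among all groups of reads. miR-1 averaged 435 ± 246 RPM from 34337 reads, at rank 167. miR-133a averaged 31.9 RPM from 2511 reads and ranged from 8.91 to 86.6 RPM over the sows, and miR-122 averaged 19.5 ± 3.49 RPM from 1715 reads. miR-206 averaged 3.12 ± 2.40 RPM from 241 reads, and miR-124 had 2 reads in all. Neighbours in this order did not all differ beyond their spread: miR-9 exceeded miR-1 in 14 of 15 sows, and miR-133a exceeded miR-122 in 11 of 15. The other neighbours kept their order in 15 of 15 sows. These values are shares of reads, and library making can favour some sequences over others, so they are not copy numbers.

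**Figure D1:**
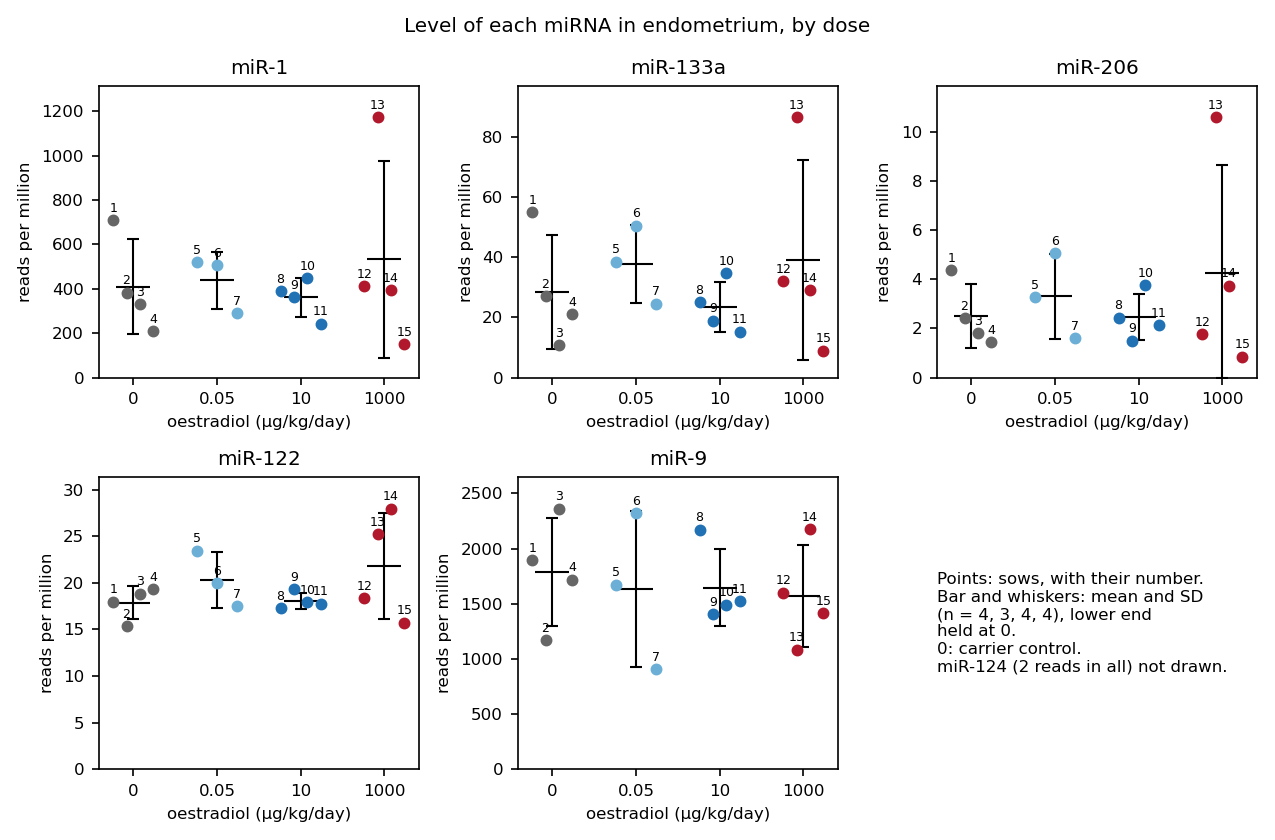
Each panel plots 1 miRNA in RPM (vertical axis, from 0) by dose of oestradiol (horizontal axis), with a point for each numbered sow and the mean ± SD of each group (n = 4, 3, 4 and 4). Sow 13 at 1000 µg/kg/day stands highest for miR-1 (1173), miR-133a (86.6) and miR-206 (10.6), and sow 15 of the same group stands lowest, while miR-122 keeps between 15.4 and 28.0 in all sows.

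Among the muscle miRNAs, miR-1 was the most abundant. In control sows it stood at 711, 383, 331 and 210 RPM in sows 1 to 4. At 0.05 µg/kg/day it stood at 520, 505 and 291 RPM, and at 10 µg/kg/day at 390, 363, 448 and 243 RPM. At 1000 µg/kg/day sows 12 to 15 had 411, 1173, 393 and 150 RPM. Every dose group overlapped the control sows, and the highest and the lowest of the 15 values both came from the 1000 group. Sow 13 had 2.98 times the median of the other sows of its group. Within the control group sow 1 had 2.15 times the median of the others.

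miR-133a, the partner of miR-1 in muscle, was less abundant and followed the same sows. Control sows 1 to 4 had 55.1, 27.0, 10.8 and 21.05 RPM of miR-133a. Sows at 0.05 µg/kg/day had 38.6, 50.6 and 24.6 RPM, and sows at 10 µg/kg/day had 25, 18.9, 34.7 and 15.3 RPM. Sows 12 to 15 at 1000 µg/kg/day had 32.2, 86.6, 29.1 and 8.91 RPM. Sow 13 again was above, and sow 15 below, every control sow, and no dose group was separate from the controls.

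miR-206, the skeletal muscle member, was counted from 7 to 44 reads per sow, so its values are coarse. Control sows had 4.38, 2.41, 1.80 and 1.45 RPM of miR-206. Sows at 0.05 µg/kg/day had 3.27, 5.06 and 1.61 RPM, and sows at 10 µg/kg/day had 2.44, 1.499, 3.76 and 2.14 RPM. Sows at 1000 µg/kg/day had 1.76, 10.6, 3.75 and 0.853 RPM. The highest and lowest sow were the same as for miR-1 and miR-133a.

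In edgeR's quasi-likelihood test over all 9951 groups of reads tested, no group was called at 1000, 10 or 0.05 µg/kg/day against control (Benjamini-Hochberg adjusted p under 0.05, percent called 0%). An unadjusted p under 0.05 was reached by 445, 317 and 256 groups at these doses, and DESeq2 called 0, 1 and 0. Of the 5 miRNAs tested, 0 were called at any dose. They were chosen by their levels in these data, so their differences and intervals are descriptions and no test of the dose. At 1000 µg/kg/day against control miR-1 differed by 0.48 on the log2 scale (95% confidence interval −0.80 to 1.76). The difference was 0.55 for miR-133a (−0.94 to 2.03) and 0.71 for miR-206 (−0.81 to 2.22). Without sow 13 these 3 differences turned negative, to −0.37, −0.30 and −0.38. The adjusted p was 1.00 for each. The 95% confidence intervals at 10 µg/kg/day were −1.34 to 1.21 for miR-1, −1.62 to 1.32 for miR-133a and −1.31 to 1.59 for miR-206.

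miR-1, miR-133a and miR-206 were high in the same sows. Across the 15 sows the Spearman rho was 0.946 between miR-1 and miR-133a, 0.871 between miR-1 and miR-206 and 0.846 between miR-133a and miR-206. Pearson's r on log2 values was 0.895, 0.904 and 0.880, and without the 2 most distant sows 0.772, 0.759 and 0.748. These correlations are descriptions, and the values share libraries and their totals. The ratio of miR-1 to miR-133a ran from 9.97 to 30.6 with a median of 13.5, and that of miR-1 to miR-206 from 99.9 to 242 with a median of 159. In the RefSeq annotation of Sscrofa11.1, MIR1 and MIR133A-1 are neighbours on 1 chromosome with 0 genes between them, and so are MIR206 and MIR133B.

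The smooth muscle markers moved with them, but not most closely of the named miRNAs. miR-143, an abundant miRNA of smooth muscle, was 115911 RPM in sow 13, against 37503 to 53909 RPM in the other sows at 1000 µg/kg/day and 41895 to 65708 RPM in control sows. Its rho with miR-1 was 0.711, and that of miR-145, transcribed with miR-143, was 0.714 over the same 15 sows. Other named miRNAs had a higher rho with miR-1, among them miR-26a (0.846) and miR-22 (0.843). miR-145 in sow 13 was 3669 RPM, within the 2122 to 4166 RPM of control sows. The red cell miRNA miR-451 was also highest in sow 13, at 3377 RPM, against 1101 to 1384 RPM in control sows. The other red cell markers, miR-144 and miR-486, were highest there too, at 111 and 103 RPM.

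Several markers of stroma and leukocytes were low in sow 13. The stroma marker miR-199a-5p was 5738 RPM in sow 13, against 6576 to 11990 RPM in control sows, and miR-214 was 93.9 RPM, against 155 to 303 RPM. The leukocyte markers miR-223 and miR-155 were 18.6 and 21.6 RPM in sow 13, against 61.7 to 130 RPM and 28.5 to 41.5 RPM in control sows. These 4 values were the lowest of the 15 sows. The stroma strand miR-199a-3p and the leukocyte markers miR-142-3p and miR-150 were not, at 5673, 37.6 and 78.6 RPM. The epithelial miR-200a was 12139 RPM in sow 13, against 10142 to 12178 RPM in control sows, and miR-200b was 9427 RPM, against 8389 to 8936 RPM. The library of sow 13 was the shallowest of the 16, at 4497096 reads. The part of these cell types and of depth in the levels of the muscle miRNAs was not tested.

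**Figure D2:**
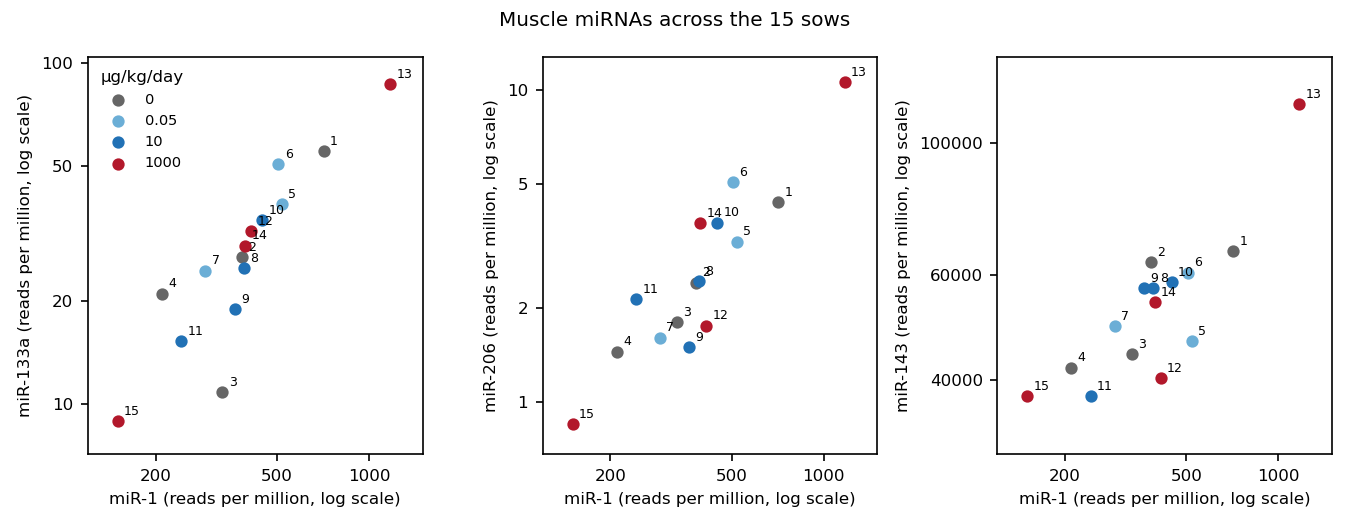
Each point is 1 of the 15 sows, numbered and coloured by dose, with miR-1 on the horizontal axis and miR-133a, miR-206 or miR-143 on the vertical axis, all in RPM on log scales. Sow 15 lies lowest for miR-1 in each panel and sow 13 highest on both axes; rho is 0.946, 0.871 and 0.711 from left to right.

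Other listed muscle miRNAs gave a mixed picture. miR-499, made from an intron of a myosin gene in heart and slow muscle, had 14020 reads at 121 to 212 RPM, and its coefficient of variation was smaller than that of miR-1. Its rho with miR-1 was 0.664. miR-208, encoded within cardiac myosin genes, was not recognised in the largest or the next distinct group with its seed and first base. These groups, of 132 and 4 reads, had other bodies, and other groups were not examined. miR-133b could be told from miR-133a by 1 base only, G in miR-133a and A in miR-133b. At that base miR-133a reads had G in 2298 and A in 14, and reads of the second 5′ form had G in 2368 and A in 8. Whether the reads with A are miR-133b or sequencing errors was not tested.

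miR-133a was the only one of the 6 with 2 starts of like frequency. Of its reads, 49.5% began at the first form's start and 47.8% began 1 base later, while 97.4 to 98.4% of the reads of miR-1, miR-206, miR-122 and miR-9 began at 1 base. The share beginning 1 base later, of the reads with either start, ran from 44.9 to 53.0% across sows, and the 2 forms had a rho of 0.989 with each other. Sows 12 to 15 at 1000 µg/kg/day had 31.2, 80.4, 27.4 and 7.58 RPM of the second 5′ form, against 56.5, 27.2, 11.6 and 20.2 RPM in control sows, so sows 13 and 15 stood above and below the controls as for the first form. The other strand of the miR-133a hairpin had 190 reads, at 0.658 to 6.18 RPM.

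**Figure D3:**
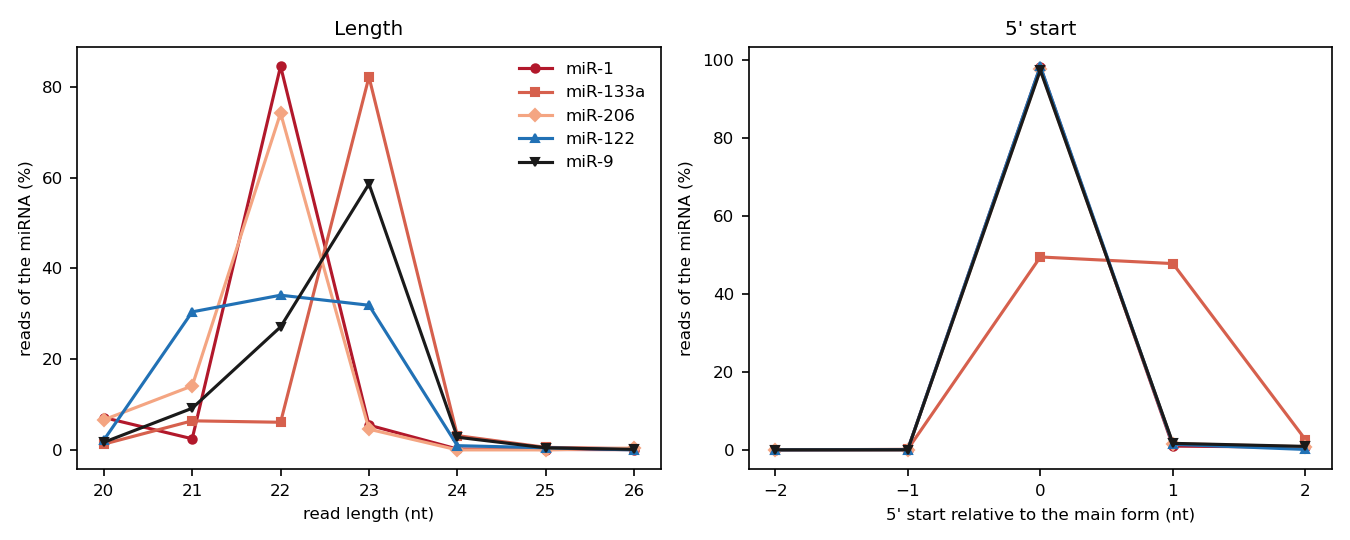
The left panel plots the share of each miRNA's reads (vertical axis, %) by read length in nt, and the right panel by 5′ start relative to the main form in nt, pooled over all sows. miR-1 and miR-206 peak at 22 nt, miR-133a and miR-9 at 23 nt, miR-122 spreads over 21, 22 and 23 nt (30.4, 34.1 and 31.9%), and only miR-133a has a second frequent start (47.8%).

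Read length within a miRNA was not used to choose it, so it was tested. miR-133a reads of 23 nt made up 80.9 ± 2.69% at 1000 µg/kg/day and 78.8 ± 3.65% at 10 µg/kg/day, against 85.1 ± 2.81% in control sows (SD, n = 4 each). Two-sided exact permutation tests gave p = 0.0571 for both, with an adjusted p of 0.343 over 12 tests, and 0.0286 was the smallest p this design allows. miR-1 reads of 22 nt made up 84.9 ± 1.79% at 1000 µg/kg/day and 83.7 ± 1.00% in control sows, with an exact permutation p of 0.257 (adjusted 0.514). None of the 12 tests, over miR-1, miR-133a, miR-122 and miR-9 at 3 doses, passed after adjustment. A lone test at the smallest p could not have passed, and several at that p would have been needed. This outcome therefore does not show that the lengths were alike.

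Most reads with the seed shared by miR-1 and miR-206 fell in the groups given these names. Of 36991 reads of 20 nt or more with this seed, 92.8% were miR-1, 0.652% were miR-206, 4.22% were 1 base from miR-1 and 2.27% shared the seed only. Reads that were miR-1 except for 1 of the 2 bases of miR-206 numbered 195 for A11G and 71 for A17G, while the reads with both, miR-206 itself, numbered 241. The largest group of reads with only the seed, 334 reads that shared their first 20 nt, was 1 base from a miR-203 read shifted by 1 base. For miR-133a, 64.8% of 3873 reads with its seed were miR-133a and 33.1% shared the seed only. The bases that define each of the members were read from the same data, so such shares are no check of the names.

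miR-122, the liver miRNA, was low and even across sows. Control sows had 17.98, 15.4, 18.8 and 19.3 RPM of miR-122. Sows at 0.05 µg/kg/day had 23.5, 19.9 and 17.5 RPM, and sows at 10 µg/kg/day had 17.3, 19.3, 17.9 and 17.7 RPM. Sows at 1000 µg/kg/day had 18.3, 25.2, 28.0 and 15.7 RPM. At 1000 and at 0.05 µg/kg/day 2 sows each lay above all controls, and 2 and 1 lay among them. The log2 difference was 0.35 at 1000 (95% confidence interval −0.16 to 0.86), 0.14 at 10 (−0.37 to 0.64) and 0.17 at 0.05 µg/kg/day (−0.38 to 0.72). miR-122 was counted from 69 to 210 reads per sow.

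A high value in control sow 2 under the seed of miR-122 did not come from miR-122. Counting every read of 18 nt or more with bases 2 to 8 of miR-122, sow 2 had 183 RPM, but its miR-122 was 15.4 RPM, the lowest of the 15 sows. Its reads that shared only the seed came to 166 RPM, against 8.41 to 18.9 RPM in the other 3 control sows. Among reads of 20 nt or more the values were 64.7 RPM and 5.21 to 9.43 RPM. Of 2707 reads of that length with the seed in all sows, 63.4% were miR-122 and 34.3% shared the seed only. At 18 nt or more there were 3589 reads with the seed. Of these, 1736 (48.4%) were miR-122 to at least 18 bases, 69 were 1 base away and 1784 (49.7%) shared the seed only. Of the last, 1124 reads shared 1 start of 18 nt. Their most common read, in 479 copies, is shown because this group carries the outlier, with the seed in capitals below miR-122 for comparison.
miR-122: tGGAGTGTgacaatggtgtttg
seed-only read: aGGAGTGTgtaacaactca
Reads with this start reached 151 RPM in sow 2, against a next highest value of 11.2 RPM and a median of 4.75 RPM. As background, this start is known from large-subunit ribosomal RNA.

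**Figure D4:**
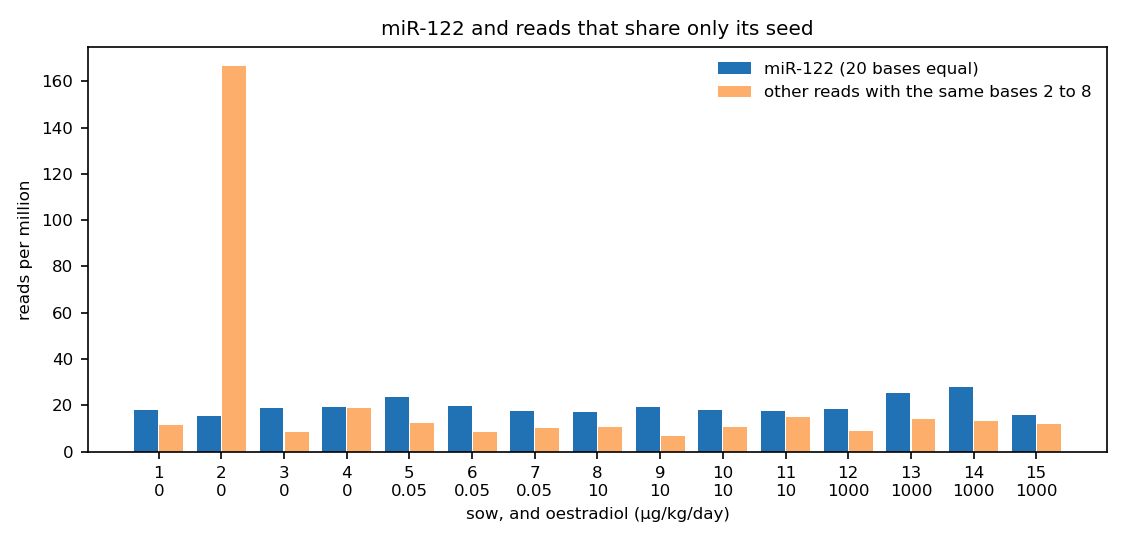
Bars give, for each of the 15 sows with its dose (horizontal axis), RPM of miR-122 and of other reads with the same bases 2 to 8. The miR-122 bars lie between 15.4 and 28.0, and the seed-only bar of control sow 2 reaches 166 while the other seed-only bars stay at or under 18.9.

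Other listed liver miRNAs did not follow miR-122. miR-192 and miR-194, which are also abundant in intestine and kidney, had 4722 and 1522 reads, at 31.5 to 138 and 7.69 to 50.5 RPM. Their rho with miR-122 was 0.171 and −0.050 over the 15 sows. miR-885 had 52 reads in all. The other strand of miR-122 was not recognised in the largest or the next distinct group with its seed and first base. Those groups, of 80 and 7 reads, had other bodies, and other groups were not examined.

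miR-124, the neuronal miRNA, was at the limit of detection. Its reads were 2 of 92411446 reads of 18 to 26 nt, with 1 read in sow 7 at 0.05 µg/kg/day and 1 in sow 8 at 10 µg/kg/day. The other 13 sows had 0 reads, which allows miR-124 up to 0.256 to 1.10 RPM at the limit of 3 reads. Of 438 reads of 18 nt or more with its seed, 436 shared the seed only. The largest group of these, 234 reads that shared their first 18 nt, had aAAGGCACgagaggacaatt as its most common read, in 186 copies, and is not identified here. Another 15 reads were 1 base from miR-183. A value for this seed family is therefore not a value of miR-124.

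miR-9, the other brain miRNA, was abundant. Control sows had 1897, 1170, 2361 and 1719 RPM of miR-9. Sows at 0.05 µg/kg/day had 1672, 2323 and 908 RPM, and sows at 10 µg/kg/day had 2170, 1402, 1492 and 1521 RPM. Sows at 1000 µg/kg/day had 1600, 1084, 2178 and 1415 RPM. All dose groups overlapped the controls, and the lowest sow, sow 7, was at 0.05 µg/kg/day. At 1000 µg/kg/day against control the log2 difference of miR-9 was −0.13 (95% confidence interval −0.72 to 0.45). It was −0.01 at 10 (−0.60 to 0.57) and −0.11 at 0.05 µg/kg/day (−0.75 to 0.52).

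Most reads with the seed of miR-9 fell in the group named miR-9. Of 152471 reads of 20 nt or more with the seed, 95.1% matched its 20 bases, 2.13% were 1 base away and 2.74% shared the seed only. These 20 bases were read from the same data, so the share is no check of the name. The opposite strand of the hairpin, miR-9 3′ arm, had 599 reads at 2.92 to 13.2 RPM, with a rho of 0.771 to the main strand. The ratio of both strands ran from 130 to 393 with a median of 237. The most common form of miR-9 took 51.4% of its reads, and the form 1 base shorter at the 3′ end took 26.1%.

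Other listed brain miRNAs ranged from abundant to nearly absent. miR-128 and miR-7 stood at 964 to 2102 and 636 to 1256 RPM, miR-129 had 2127 reads and miR-219 had 668. miR-138, miR-137 and miR-153 had 53, 37 and 3 reads. The rho of miR-9 with miR-128 was 0.196 and with miR-7 0.111. miR-128 averaged 1921 ± 130 RPM at 1000 µg/kg/day and 1373 ± 331 RPM in control sows (SD, n = 4 each), a log2 difference of 0.56 with an edgeR p of 0.0153 that became 1.00 after adjustment over all groups. An unadjusted edgeR p under 0.05 was reached by 445 of 9951 groups at this dose. Of 11 recognised miRNAs of the muscle, liver and brain lists besides the 6, 7 were tested and 0 were called at any dose. Of all 9951 groups tested, 0 were called as well.

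The muscle miRNAs varied between sows more than most of the named miRNAs of at least 10 RPM. Single-sow outliers were among the grounds on which they were chosen, so this order is a description and no test. The coefficient of variation over 15 sows was 76.8% for miR-206, 62.7% for miR-133a and 56.5% for miR-1. Of 54 named miRNAs averaging at least 10 RPM, 0, 1 and 3 had a higher one. miR-206 itself averaged 3.12 RPM. Among named miRNAs under 10 RPM, miR-153 (227%), miR-885 (107%), miR-138 (93.5%) and miR-137 (76.9%) exceeded it, and miR-219 (34.1%) did not. The coefficient was 27.1% for miR-9 and 17.9% for miR-122, beside a median of 21.2% over the 54. The spread of miR-206 includes the counting error of 7 to 44 reads. The 2 extractions of sow 7 show how far 2 libraries of 1 sow differed. miR-1 was 388 RPM in the first and 228 RPM in the second, while miR-133a was 26.1 and 23.6, miR-122 18.3 and 16.9 and miR-9 966 and 871 RPM. Both libraries also differed in read length profile, so tissue sampling and library making cannot be told apart in this pair. The 95% Poisson intervals of the miR-1 values, 370 to 406 and 217 to 240 RPM, cover counting error only and do not overlap.

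**Figure D5:**
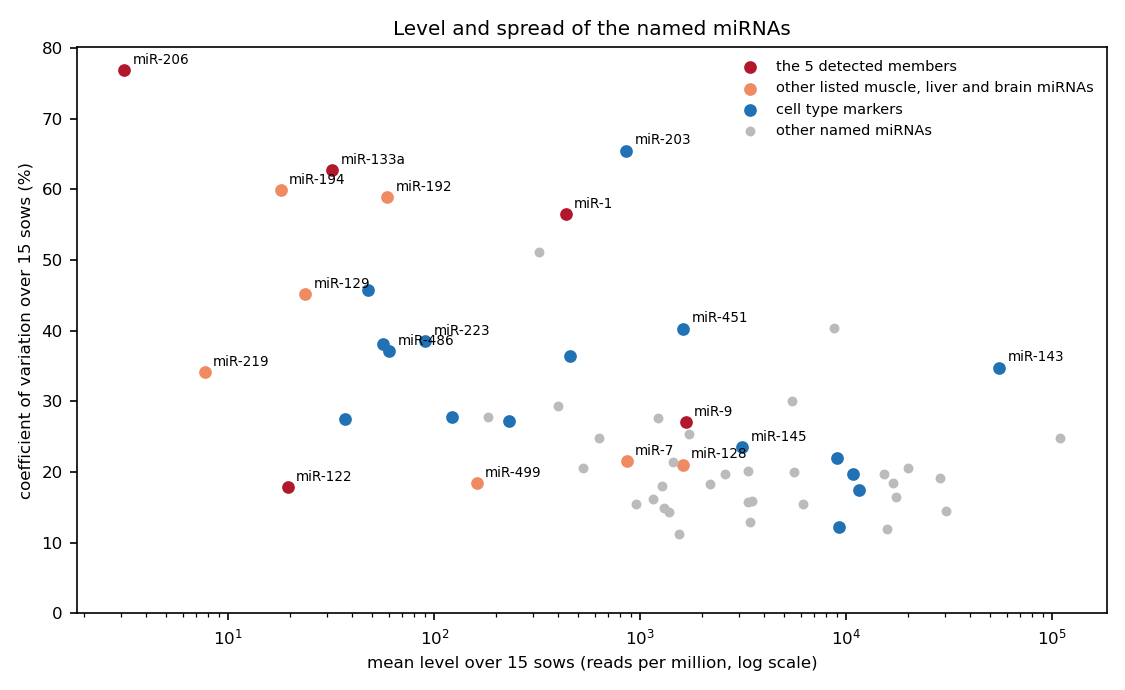
Each point is 1 named miRNA with its mean level over 15 sows in RPM (horizontal axis, log scale) and its coefficient of variation over the sows in % (vertical axis). miR-206 (76.8%), miR-133a (62.7%) and miR-1 (56.5%) lie near the top. miR-122 (17.9%) lies below 21.2%, the median of the 54 named miRNAs of at least 10 RPM. miRNAs averaging under 1 RPM are not drawn.

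The miRNAs whose levels ran most like each member were named from 57 candidates by Spearman rho over 15 sows. For miR-1 these were miR-133a, miR-26a (0.846) and miR-22 (0.843), and for miR-133a they were miR-1, miR-24 (0.893) and miR-22 (0.836). For miR-122 they were miR-99a (0.668), miR-22 (0.568) and miR-128 (0.561). For miR-9 they were miR-223 (0.575), miR-186 (0.511) and miR-34c (0.443), all weaker than the rho of miR-9 with its own 3′ arm.

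The sows fell into 3 classes by read length profile, which is no label of the study, and the classes are unequal across doses. No control sow and no sow at 10 µg/kg/day lay in class C, which held sows 6, 13 and 14. miR-1 ran from 363 to 711 RPM in class A, from 150 to 448 RPM in class B and from 393 to 1173 RPM in the sows of class C. Sow 7 lay in class B when its extractions were summed, but taken alone its second library had the profile of class C. That library had 228 RPM of miR-1, below the other class C values and below the 388 RPM of the first library, which had the profile of class B. Within class A the sow at 1000 µg/kg/day had 411 RPM of miR-1, against 383 to 711 RPM in the 2 control sows. Within class B the sow at 1000 µg/kg/day had 150 RPM, against 210 to 331 RPM in the 2 control sows. With the class as a covariate, the log2 differences of miR-1, miR-133a and miR-206 at 1000 µg/kg/day were −0.38, −0.36 and −0.66, so their direction depends on this term. In class C the dose and the length profile cannot be told apart.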

How the data were processed

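The deposited files give, for each of 16 libraries, every distinct read and its raw count. RNA was extracted with TRIzol and libraries were made with the NEBNext kit, per the labels' protocols. FastQC is the 1 tool in the submitters' processing notes; 4 genome builds are named there without a role, and aligner and adapter trimming are not given in the sources used here. The authors' counts carried no normalization, and no molecular identifiers are described, so floors and Poisson intervals cover counting error only.

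The members and lists were chosen with earlier results of these data known. No table of mature miRNAs was given: each miRNA was located among the deposited reads by its seed, first base and rank, chosen after the reads were seen, and named from general knowledge. For this reason the rule naming similar patterns used 57 recognised miRNAs in place of an annotation, and both starts of miR-133a are given. The text describes the 6 members, the other arms of miR-133a, miR-9 and miR-122, and the listed muscle, liver and brain miRNAs. It also covers those sharing a seed and the 3 most alike per member of at least 10 RPM. The other arms of miR-1, miR-206 and miR-124 were not recognised. Their largest groups by seed and first base held 2, 13 and 2 reads, and not all smaller groups were examined. The 54 named miRNAs of the comparison of spread and the 57 candidates also include cell type markers and other abundant recognised miRNAs.

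Reads of 20 to 26 nt were summed by their first 20 nt. Of 23707 groups with at least 30 reads, 9951 passed filterByExpr and held 84.3% of reads of 18 to 26 nt. They were tested with edgeR 4.0.16 (quasi-likelihood, robust, TMM, R 4.3.3) over 15 sows, Benjamini-Hochberg adjusted, with DESeq2 1.42.0 as an alternative. The biological coefficient of variation was 0.324. Member log2 differences come from this fit. Length shares were compared by exact permutation over sows. The code was tested on simulated data. Libraries with fewer than 8% of their reads at 17 to 19 nt formed length class A; the others formed class C if 5% or more of reads were at least 40 nt long, and class B if not, classes defined from these data. Alternatives covered normalization, filter, sows, match, start and denominator. Apart from sow 7, each replicate is a separate sow.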

Additional observations from a re-analysis of the deposited data

Results flagged for a closer look

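Dixon's 95% criterion was used to list sows that stood far from the other 3 of their group, and met in 5 of 81 groups, over 27 measures; chance alone picks about 1 group in 20. The criterion was applied to groups of 4 sows only, so the 3 sows at 0.05 µg/kg/day were not screened. Single-sow outliers were among the grounds on which these miRNAs were chosen, so the list describes the sows it names and is no test. Control sow 2 had 166 RPM of reads that share only the seed of miR-122, against 18.9 RPM in the next control sow. At 10 µg/kg/day sow 8 had the highest miR-9, at 2170 RPM, against 1521 RPM in the next sow of its group. Sow 11 of that group had the lowest miR-143, at 37517 RPM, against 57007 RPM in the next, and the lowest miR-194, at 11.6 RPM, against 14.9 RPM. It also had the highest level of reads with only the seed of miR-1, at 11.1 RPM, against 8.46 RPM. Sow 13 at 1000 µg/kg/day, with 1173 RPM of miR-1, did not meet this criterion.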

How the results depend on the processing

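Without the expression filter, and with a minimum of 10 reads per group in place of 30, more groups were called. The counts were 8 at 0.05, 78 at 10, 1 at 1000 µg/kg/day and 520 for the 3 doses together. The main fit called 0 in each. The number of groups tested under that setting is not given here. DESeq2 called 1 at 10 µg/kg/day and 2 for the 3 doses together. A fit of only the 1000 and control sows called 1. Leaving out 1 sow at a time gave 0 to 1 calls at 10 µg/kg/day (1 without sow 8) and 0 to 0 in the other comparisons. The cause was not tested. No called group is described here.

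With length class as a covariate, 8 log2 differences changed sign: miR-1 −0.38, miR-133a −0.36 and miR-206 −0.66 at 1000; miR-1 0.054 and miR-133a 0.061 at 10; miR-1 −0.28, miR-206 −0.43 and miR-122 −0.014 at 0.05 µg/kg/day. Without the filter and with the lower minimum of reads, miR-1 (0.023) and miR-9 (0.042) at 10 µg/kg/day changed sign. Leaving out 1 sow at a time, the log2 difference at 1000 µg/kg/day ran from −0.37 to 0.89 for miR-1, −0.30 to 1.10 for miR-133a, −0.38 to 1.196 for miR-206, 0.19 to 0.53 for miR-122 and −0.36 to 0.020 for miR-9. At 10 µg/kg/day it ran from −0.31 to 0.35 for miR-1, −0.45 to 0.40 for miR-133a, −0.24 to 0.54 for miR-206, −0.0066 to 0.21 for miR-122 and −0.16 to 0.15 for miR-9. At 0.05 µg/kg/day it ran from −0.16 to 0.48 for miR-1, −0.21 to 0.77 for miR-206 and −0.56 to 0.18 for miR-9. Differences in length share, in percentage points, ran from −1.35 to 1.78 for miR-122 at 1000, and at 0.05 µg/kg/day from −5.74 to 0.57 for miR-122 and −2.81 to 0.10 for miR-133a.

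Levels set against all deposited reads moved by more than 1 SD for 11 of 20 values, and allowing other starts raised miR-133a to 78.5 RPM at 1000 µg/kg/day and 59.4 RPM in control sows. No paired analysis was possible because the groups share no sow numbers. Depth limits miR-206 and miR-124 most.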
